A study of Sus scrofa with 5 samples.

Results

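Bulk RNA sequencing of kidney biopsies from a pig-to-human kidney xenotransplantation, the second case of the study, was examined for the graft at 24 h. The comparison used 3 of the 5 libraries of the series, chosen by their labelled time: 1 xenograft biopsy taken 24 h after transplantation, and 2 kidney libraries labelled as controls at 0 h (controls 1 and 2). The other libraries were single graft biopsies at 12 and 48 h, which entered the same fit and are used below to show where the 24 h biopsy stood apart from them. The labelled protocol is total RNA from homogenized pig kidney cores, depleted of ribosomal RNA, although the cell type field names dissociated kidney cells. The labels give neither the genotype, age nor sex of the donor pig, nor whether the controls came from 1 animal or 2. The 24 h group is thus 1 biopsy of 1 graft, with no replicate of its own.

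A kidney core passes through cortex and, depending on its depth, medulla. Cortex holds the glomeruli, where podocytes filter the blood, and the convoluted proximal tubules, which take back most of the filtered glucose, amino acids and phosphate on energy from fatty acid oxidation. Medulla holds loops of Henle and collecting ducts, which concentrate the urine. After ischemia, surviving proximal tubule cells lower their transport genes, switch on injury genes such as those for osteopontin and keratins, and may divide. All of this is known mainly from mice and humans.

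The pig-table totals were 66169176 counts in the 24 h biopsy and 65919506 and 71108823 in controls 1 and 2. Levels are given as counts scaled to library size by the trimmed mean of M values (TMM-scaled CPM), and a fold against a single control is the ratio of CPM with 0.5 CPM added to each side. The kidney label held: LRP2 of the proximal tubule stood at 1055 CPM in the 24 h biopsy, against 3354 and 3117 CPM in controls 1 and 2. UMOD of the thick ascending limb was at 4990.4 CPM at 24 h against 2664 and 2543 CPM in the controls. NPHS1 of podocytes was at 4.33 CPM at 24 h against 22.5 and 18.3 CPM in the controls. The 13 mitochondrial genes took 14.5% of counts at 24 h, against 21.9% and 33.4% in the controls. The human table, which counts reads over the human genome, held 29.0 counts per 100 pig-table counts at 24 h, against 22.8 and 18.8 in the controls. How reads that fit both genomes were handled is not given in the sources used here, and the control values show what the human table holds at 0 h.

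Much of the transcriptome differed from the controls at 24 h, mostly by less than 2-fold. With Benjamini-Hochberg adjustment at 0.05, the quasi-likelihood test of edgeR called as follows: 3067 of 12857 genes were higher (23.9%) and 2961 were lower (23.0%), together 46.9%. DESeq2 called 1975 higher and 1902 lower. A stricter description, at least 2-fold in the same direction against each control, held for 903 genes that were higher (7.02%) and 767 that were lower (5.97%). At 4-fold against each control 147 genes were higher (1.14%) and 122 lower (0.949%). By contrast, 9 genes differed 2-fold between the controls themselves. The fit has 1 residual degree of freedom, from the control pair, so the spread of the controls stands in for that of the single 24 h library and an adjusted p measures the spread between these control libraries, which may be technical. Below, a gene "passed", "rose" or "fell" by the edgeR test, and the 2-fold count is given beside it. Each list count is to be read beside the shares over all genes tested. These are 23.9% higher and 23.0% lower by edgeR, and 7.02% higher and 5.97% lower past 2-fold.

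**Figure D1:**
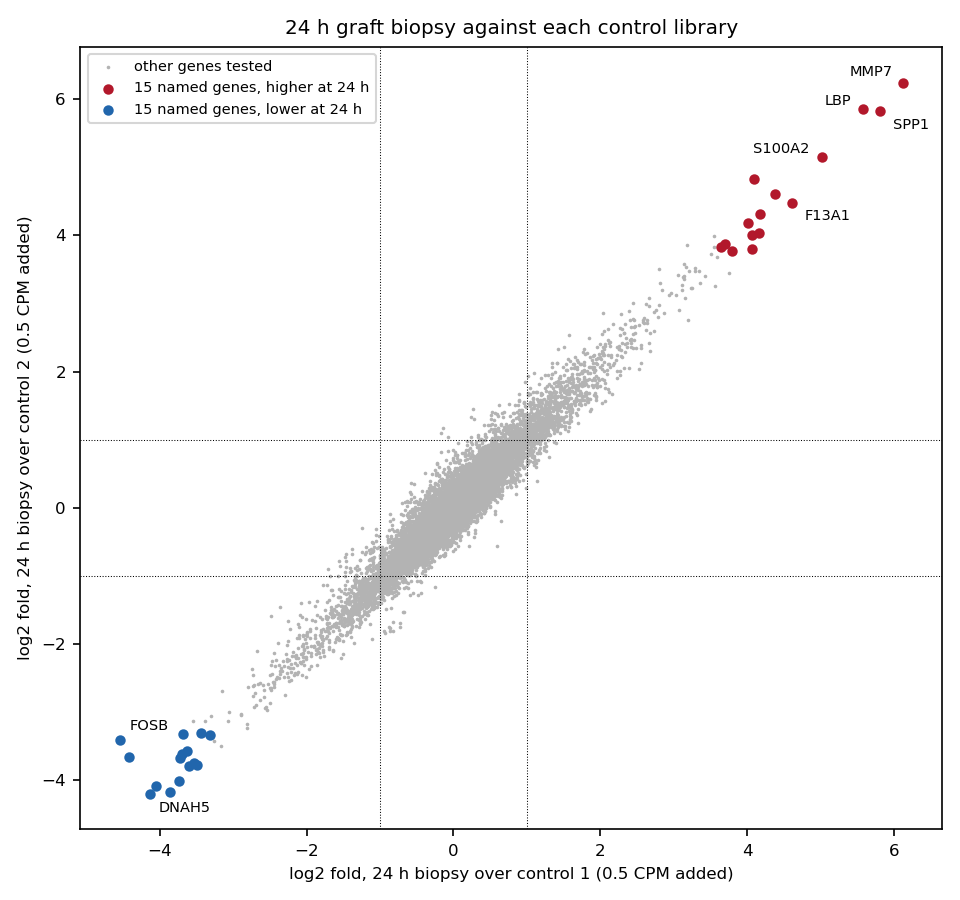
Log2 fold of the 24 h biopsy over control 1 (horizontal axis) and over control 2 (vertical axis), with 0.5 CPM added, for the 12857 genes tested (grey points). Dotted lines mark 2-fold. The 15 named genes in each direction (red, higher, and blue, lower) were chosen to lie past 2-fold on both axes. FOSB, 23.3-fold and 10.6-fold lower against controls 1 and 2, lies off the diagonal.

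The genes that rose most against both controls were led by tubular injury genes. MMP7, encoding a matrix metalloproteinase made by injured tubules, stood at 402 CPM in the 24 h biopsy, against 5.31 and 4.82 CPM in controls 1 and 2, or 69.4-fold and 75.8-fold higher (log2 6.31 ± 0.18, SE). SPP1, encoding osteopontin, reached 4251 CPM at 24 h against 75.5 and 74.1 CPM in the controls, 55.9-fold and 56.98-fold higher (log2 5.83 ± 0.28). For both genes the controls lay close together and far below the 24 h value. LBP, whose protein carries bacterial lipopolysaccharide to CD14, was at 48.2 CPM at 24 h against 0.519 and 0.345 CPM in the controls (47.8-fold and 57.6-fold). S100A2, an epithelial calcium-binding protein gene, was at 44.3 CPM at 24 h against 0.887 and 0.768 CPM in the controls (32.3-fold and 35.4-fold). F13A1, the catalytic subunit gene of coagulation factor XIII, was at 66.7 CPM at 24 h against 2.26 and 2.53 CPM in the controls (24.4-fold and 22.2-fold). These genes were named by a rule that requires at least 2-fold above both controls, so lying above both is set by the choice.

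AGT, encoding angiotensinogen, the precursor of the angiotensins, was at 33.3 CPM in the 24 h biopsy, against 1.12 and 0.883 CPM in controls 1 and 2 (20.8-fold and 24.4-fold). FXYD4, a collecting duct regulator of the sodium pump, was at 74.2 CPM at 24 h against 3.87 and 2.13 CPM in the controls (17.1-fold and 28.4-fold), and its controls were further apart than those of most genes named here. ACKR1, a decoy chemokine receptor of venules and red cells, was at 18.1 CPM at 24 h against 0.653 and 0.518 CPM in the controls (16.1-fold and 18.2-fold). Vessel and chemokine genes were among the leading set. PROCR, the endothelial protein C receptor gene, was at 24.6 CPM at 24 h against 1.32 and 1.34 CPM in the controls (13.8-fold and 13.6-fold). The chemokine gene CXCL11 was at 12.3 CPM at 24 h against 0.268 and 0.422 CPM in the controls (16.7-fold and 13.9-fold). CD163, the haptoglobin-hemoglobin scavenger receptor gene of macrophages, was at 245 CPM at 24 h against 13.2 and 14.5 CPM in the controls (17.9-fold and 16.4-fold). The apolipoprotein gene APOA4 was at 24.1 CPM at 24 h against 0.971 and 1.04 CPM in the controls (16.7-fold and 16.03-fold). ADGRF4, an adhesion G protein-coupled receptor gene, was 18.1-fold and 19.8-fold higher and CRTAC1 12.9-fold and 14.6-fold.

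The genes that fell most were proximal tubule genes, immediate early genes and a pair from the motile cilia list. DNAH5, an axonemal dynein heavy chain gene, stood at 1.10 CPM in the 24 h biopsy, against 27.4 and 28.8 CPM in controls 1 and 2, 17.5-fold and 18.3-fold lower (log2 -4.67 ± 0.25). CCDC60, a coiled-coil protein gene, was at 4.72 CPM at 24 h against 75.2 and 93.5 CPM in the controls (14.5-fold and 18.02-fold lower). SLC5A12, a lactate transporter of the proximal tubule brush border, was at 211 CPM at 24 h against 2774 and 2694 CPM in the controls (13.1-fold and 12.8-fold lower). SLC7A8, a basolateral amino acid exchanger, was at 65.6 CPM at 24 h against 855 and 805 CPM in the controls (12.9-fold and 12.2-fold lower). Both transporter genes stayed detectable at 24 h.

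Several enzyme genes of small-molecule breakdown were in the same leading set. ETNPPL, encoding ethanolamine-phosphate phospho-lyase, was at 5.76 CPM in the 24 h biopsy, against 103 and 105 CPM in controls 1 and 2 (16.6-fold and 16.9-fold lower). INMT, an amine N-methyltransferase gene, was at 7.37 CPM at 24 h against 104 and 126 CPM in the controls (13.3-fold and 16.1-fold lower). HAO1, encoding the peroxisomal glycolate oxidase, was at 22.5 CPM at 24 h against 278 and 318 CPM in the controls (12.1-fold and 13.8-fold lower). PIPOX, encoding peroxisomal pipecolate and sarcosine oxidase, was at 2.56 CPM at 24 h against 33.9 and 41.6 CPM in the controls (11.3-fold and 13.8-fold lower). BCO1, the carotene-cleaving dioxygenase gene, was 12.3-fold and 11.9-fold lower, and the steroid dehydrogenase gene HSD17B6 11.5-fold and 13.4-fold lower. NOX4, the NADPH oxidase gene abundant in kidney tubules, was at 77.5 CPM at 24 h against 841 and 773 CPM in the controls (10.8-fold and 9.92-fold lower). RNF212B, a gene known for its role in meiosis in mice, was at 0.412 CPM at 24 h against 8.55 and 8.75 CPM in the controls (9.92-fold and 10.1-fold lower).

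**Figure D2:**
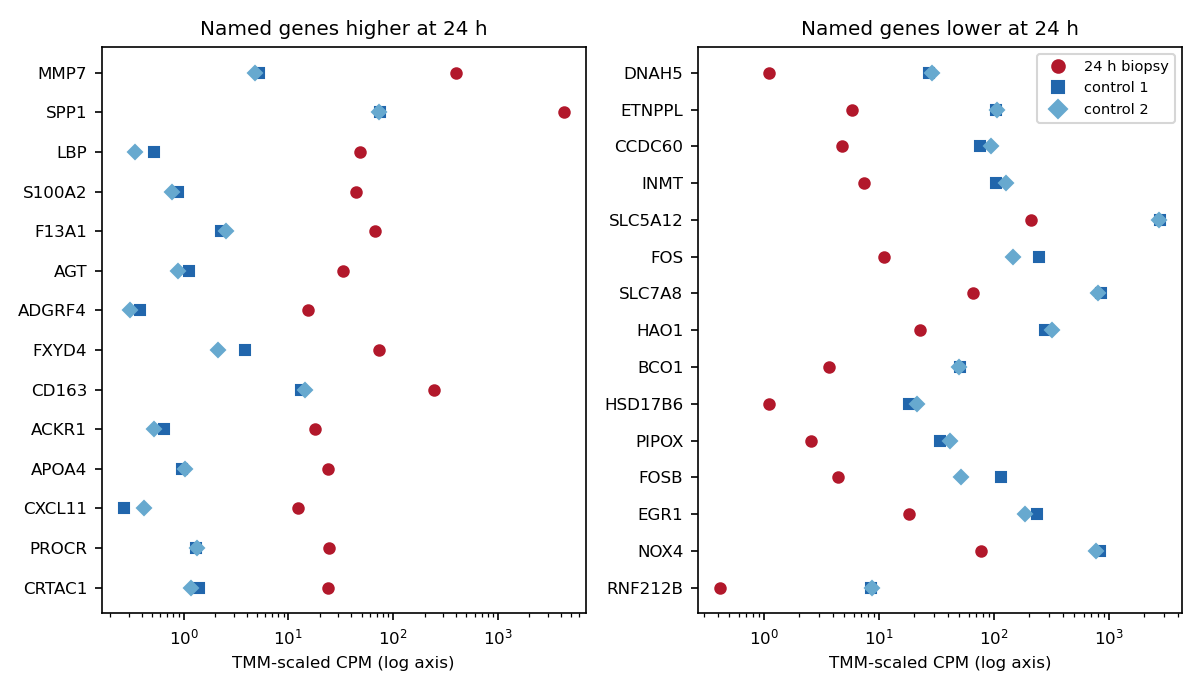
TMM-scaled CPM (log axis) of the named genes with a count in all 3 libraries that rose (left) and fell (right) in the 24 h biopsy (red circles), control 1 (dark blue squares) and control 2 (light blue diamonds). In every row the 24 h value lies outside the control pair, which the rule that named these genes requires.

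Segment content of the biopsy was examined with 10 marker lists. Most cortical proximal tubule and podocyte genes were lower at 24 h. Most collecting duct, thin limb and medullary interstitial genes were higher, and distal convoluted tubule and thick ascending limb genes went both ways. In the convoluted proximal tubule list, 0 of 18 tested members were higher and 17 lower. Convoluted tubule genes included 0 that were 2-fold higher and 12 that were 2-fold lower against both controls (median log2 fold of -1.43 against control 1 and -1.59 against control 2). Over all genes tested the medians were 0.0019 against control 1 and 0.0076 against control 2. In bulk tissue, fewer cells of a type and less RNA of these genes per cell cannot be told apart.

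Within the convoluted proximal tubule the decrease was uneven. Beside SLC5A12, GATM, encoding the first enzyme of creatine synthesis, was at 149.6 CPM in the 24 h biopsy, against 847 and 1093 CPM in controls 1 and 2 (5.64-fold and 7.28-fold lower). G6PC1, encoding the last enzyme of gluconeogenesis, was at 351 CPM at 24 h against 2328 and 2157 CPM in the controls (6.63-fold and 6.15-fold lower). The organic anion transporter gene SLC22A6 was at 88.6 CPM at 24 h against 391 and 439.8 CPM in the controls (4.39-fold and 4.94-fold lower). The sodium-glucose transporter gene SLC5A2 was at 172 CPM at 24 h against 598 and 686 CPM in the controls (3.46-fold and 3.97-fold lower). The gluconeogenesis gene PCK1 was nearer its controls, at 1704 CPM at 24 h against 2779 and 2687 CPM in the controls (1.63-fold and 1.58-fold lower). HNF4A, the transcription factor gene that maintains proximal tubule identity, was at 385 CPM at 24 h against 593 and 639.7 CPM in the controls (1.54-fold and 1.66-fold lower). SLC2A2, the basolateral glucose transporter gene, was the member that did not pass, at 93.9 CPM at 24 h against 81.2 and 77.6 CPM in the controls (adjusted p = 0.188, edgeR). Of the 17 that passed, 17 were also lower by DESeq2.

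In the straight proximal tubule list, 2 of 10 tested members were higher and 6 lower. Straight tubule genes included 1 that was 2-fold higher and 5 that were 2-fold lower against both controls (median log2 fold of -1.03 against control 1 and -1.10 against control 2). SLC7A13, the aspartate and glutamate transporter gene of the straight tubule in mice, fell most, at 2.27 CPM in the 24 h biopsy, against 18.9 and 25.6 CPM in controls 1 and 2 (7.002-fold and 9.41-fold lower). The vitamin C transporter gene SLC23A1 was at 48.9 CPM at 24 h against 119 and 127 CPM in the controls. The dicarboxylate transporter gene SLC13A3 was at 375 CPM at 24 h against 873 and 912 CPM in the controls. The members that rose were AGT, described above, and CYP7B1, an oxysterol hydroxylase gene, at 11.6 CPM at 24 h against 6.71 and 3.70 CPM in the controls. By DESeq2 the list had 2 higher and 5 lower, with SLC22A7 no longer called.

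Most, but not all, genes of the medullary tubule ran the other way. In the thin limb and papilla list, 7 of 9 tested members were higher and 0 lower. Thin limb genes included 5 that were 2-fold higher and 0 that were 2-fold lower against both controls (median log2 fold of 1.21 against control 1 and 1.20 against control 2). SLC5A3 and SLC6A12, the inositol and betaine transporter genes that medullary cells use against high salt, were at 31.8 CPM at 24 h against 10.4 and 8.50 CPM in the controls for SLC5A3. SLC6A12 was at 1.91 CPM at 24 h against 0.268 and 0.345 CPM in the controls. AKR1B1, which makes the osmolyte sorbitol, was at 38.4 CPM at 24 h against 23.8 and 22.7 CPM in the controls. The small heat shock protein gene CRYAB was at 141 CPM at 24 h against 60.8 and 61.4 CPM in the controls. CLDN4, a tight junction gene, was at 98.6 CPM at 24 h against 29.4 and 30.7 CPM in the controls. All 5 were above both controls. CLDN14 was also higher by edgeR but not by DESeq2. SLC44A5 and BST1 of this list did not pass, with log2 fold changes in the fit of 0.08 for SLC44A5 and -0.33 for BST1.

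Counts of AQP4, SLC14A1 and PENK, genes of deeper medulla, were low in all 3 libraries. AQP4, the basolateral water channel gene of the medullary collecting duct, had 0 counts in the 24 h biopsy, against 2 and 8 in controls 1 and 2, and the count of 0 allows up to 3. SLC14A1, the urea transporter gene of descending vasa recta, had 32 counts at 24 h against 9 and 0 in the controls, higher by edgeR but not by DESeq2. PENK, expressed by medullary interstitial cells in mice, had 1 count at 24 h and none in either control. SLC14A2 and AQP1 of these lists were not analysed here. The medullary endothelium and interstitium list had 7 of 10 tested members higher and 2 lower (median log2 fold of 0.83 against control 1 and 0.96 against control 2). Those that rose included the endothelin receptor gene EDNRB, at 169 CPM at 24 h against 65.3 and 47.04 CPM in the controls. PLVAP, of fenestrated endothelium, was at 275 CPM at 24 h against 139 and 126 CPM in the controls. PTGS2, the inducible cyclooxygenase gene, fell to 0.935 CPM at 24 h against 4.79 and 3.42 CPM in the controls. Some members of this list are also on the activation and matrix lists below, so it does not measure medulla alone.

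Collecting duct genes mostly rose. Of the principal cell list, 9 of 13 tested members were higher and 1 lower. Principal cell genes included 5 that were 2-fold higher and 0 that were 2-fold lower against both controls (median log2 fold of 0.56 against control 1 and 0.57 against control 2). AQP2, the vasopressin-regulated water channel gene, was at 185 CPM in the 24 h biopsy, against 82.5 and 83.3 CPM in controls 1 and 2 (2.23-fold and 2.22-fold higher). AVPR2, the vasopressin receptor gene, was at 11.7 CPM at 24 h against 3.90 and 4.45 CPM in the controls (2.76-fold and 2.45-fold). SCNN1A, the alpha subunit gene of the epithelial sodium channel, was at 222 CPM at 24 h against 85.98 and 88.99 CPM in the controls (2.57-fold and 2.48-fold). The mineralocorticoid receptor gene NR3C2 did not pass, at 29.3 CPM at 24 h against 32.6 and 27.6 CPM in the controls. Of the intercalated cell list, 7 of 12 tested members were higher and 2 lower. Intercalated cell genes included 4 that were 2-fold higher and 1 that was 2-fold lower against both controls (median log2 fold of 0.67 against control 1 and 0.49 against control 2). The acid-secreting cell genes SLC4A1 and ATP6V0A4 were at 124 CPM at 24 h against 42.001 and 41.5 CPM in the controls for SLC4A1. ATP6V0A4 was at 143 CPM at 24 h against 64.1 and 64.1 CPM in the controls. The ammonia transporter gene RHCG was at 292 CPM at 24 h against 103 and 117 CPM in the controls. SLC4A9, a bicarbonate transporter gene of base-secreting cells, fell to 4.94 CPM at 24 h against 35.2 and 40.9 CPM in the controls (6.57-fold and 7.62-fold lower). SLC26A4, pendrin of the same cells, rose to 44.4 CPM at 24 h against 20.3 and 17.4 CPM in the controls. By DESeq2 the 2 lists had 7 higher and 0 lower, and 6 higher and 1 lower.

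Thick ascending limb genes were split. Of this list, 6 of 13 tested members were higher and 3 lower. Thick limb genes included 2 that were 2-fold higher and 0 that were 2-fold lower against both controls (median log2 fold of 0.16 against control 1 and 0.51 against control 2). UMOD, encoding uromodulin, rose 1.87-fold and 1.96-fold. The paracellular magnesium channel gene CLDN16 was at 69.5 CPM at 24 h against 26.01 and 21.1 CPM in the controls. The potassium channel gene KCNJ1 was at 263 CPM at 24 h against 132 and 119.8 CPM in the controls. SLC12A1, the furosemide-sensitive cotransporter gene, did not pass, at 493 CPM at 24 h against 442 and 347 CPM in the controls (adjusted p = 0.114, edgeR). EGF fell to 429.8 CPM at 24 h against 599 and 628 CPM in the controls. CLDN10, a claudin gene, fell to 101 CPM at 24 h against 192 and 209 CPM in the controls. In the distal convoluted and connecting tubule list, 2 of 12 tested members were higher and 4 lower, against 23.9% and 23.0% of all genes tested. Distal tubule genes included 0 that were 2-fold higher and 2 that were 2-fold lower against both controls (median log2 fold of -0.18 against control 1 and -0.23 against control 2). The thiazide-sensitive cotransporter gene SLC12A3 fell to 74.1 CPM at 24 h against 164 and 192 CPM in the controls (2.21-fold and 2.58-fold lower). PVALB, encoding parvalbumin, fell to 0.660 CPM at 24 h against 2.33 and 2.96 CPM in the controls. CALB1, encoding the calcium-binding protein of the connecting tubule, rose to 3267 CPM at 24 h against 1847 and 1562 CPM in the controls. SLC8A1, the sodium-calcium exchanger gene, rose to 189 CPM at 24 h against 137 and 122 CPM in the controls.

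**Figure D3:**
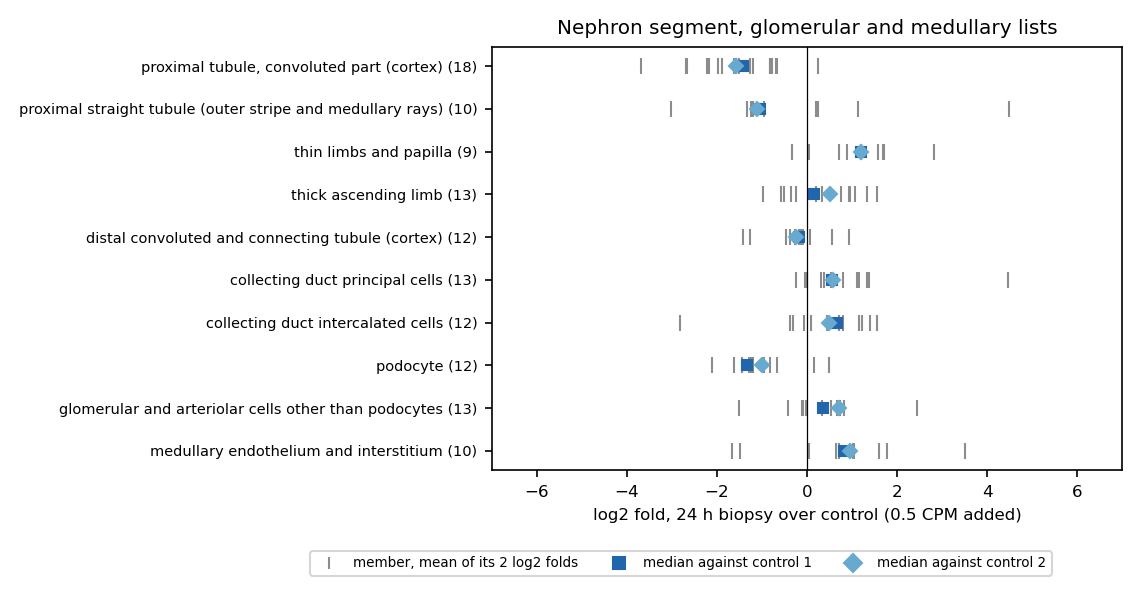
Log2 fold of the 24 h biopsy over the controls (0.5 CPM added) for 10 segment, glomerular and medullary lists, with the number of members tested in brackets; grey ticks are members (mean of the 2 folds), squares and diamonds the list medians against control 1 and control 2. Both medians lie below 0 for the proximal tubule, distal convoluted tubule and podocyte lists and above 0 for the others.

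Podocyte genes were lower. Of the list, 1 of 12 tested members was higher and 10 lower. Podocyte genes included 0 that were 2-fold higher and 6 that were 2-fold lower against both controls (median log2 fold of -1.33 against control 1 and -1.002 against control 2). NPHS1, encoding nephrin, was at 4.33 CPM in the 24 h biopsy, against 22.5 and 18.3 CPM in controls 1 and 2 (4.76-fold and 3.88-fold lower). The basement membrane collagen gene COL4A3 was at 42.1 CPM at 24 h against 143 and 119.8 CPM in the controls. The phospholipase A2 receptor gene PLA2R1 was at 24.4 CPM at 24 h against 73.9 and 49.7 CPM in the controls. WT1, the podocyte transcription factor gene, was at 13.2 CPM at 24 h against 28.1 and 24.4 CPM in the controls. The members were not lowered alike: CLIC5 did not pass, at 114 CPM at 24 h against 111 and 93.2 CPM in the controls. The actin-associated gene SYNPO was higher, at 15.9 CPM at 24 h against 10.4 and 11.8 CPM in the controls, by edgeR but not by DESeq2.

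Other glomerular and arteriolar genes did not fall with the podocyte list. Of these, 7 of 13 tested members were higher and 1 lower. These glomerular genes included 1 that was 2-fold higher and 1 that was 2-fold lower against both controls (median log2 fold of 0.36 against control 1 and 0.71 against control 2). PLAT, the tissue plasminogen activator gene, rose to 73.8 CPM at 24 h against 17.5 and 9.77 CPM in the controls (4.12-fold and 7.23-fold). The smooth muscle myosin gene MYH11 rose to 29.3 CPM at 24 h against 18.5 and 14.4 CPM in the controls. EHD3, of glomerular endothelium, was at 12.1 CPM at 24 h against 8.65 and 6.37 CPM in the controls, which passed by edgeR and not by DESeq2. PTH1R, the parathyroid hormone receptor gene that proximal tubules also express, fell to 113 CPM at 24 h against 291 and 359.9 CPM in the controls. The controls differed across this list by a median log2 of -0.35 for control 2 over control 1. EHD3 is also on the endothelial list below and MYH11 is of smooth muscle, so this list does not measure glomeruli alone.

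Tubular injury genes rose nearly throughout. Of the list, 14 of 16 tested members were higher and 0 lower. Injury genes included 12 that were 2-fold higher and 0 that were 2-fold lower against both controls (median log2 fold of 1.97 against control 1 and 2.04 against control 2). Beside MMP7 and SPP1, S100A6 was at 875 CPM in the 24 h biopsy, against 64.5 and 79.8 CPM in controls 1 and 2 (13.5-fold and 10.9-fold). ANXA2, a membrane-binding protein gene, was at 783 CPM at 24 h against 75.7 and 78.9 CPM in the controls (10.3-fold and 9.87-fold). TIMP1, the metalloproteinase inhibitor gene, was at 76.6 CPM at 24 h against 8.12 and 6.16 CPM in the controls (8.95-fold and 11.6-fold). The keratin genes rose together, and KRT7 was at 155 CPM at 24 h against 17.1 and 14.6 CPM in the controls. KRT18 was at 67.6 CPM at 24 h against 11.1 and 12.9 CPM in the controls. KRT8 was at 421 CPM at 24 h against 111 and 105 CPM in the controls. SOX9, the repair transcription factor gene, was low in all 3 libraries, at 1.29 CPM at 24 h against 0.519 and 0.384 CPM in the controls, and passed by edgeR but not by DESeq2. GDF15 and PROM1 did not pass, at 7.95 CPM at 24 h against 6.61 and 7.08 CPM in the controls for GDF15. PROM1 was at 14.3 CPM at 24 h against 17.2 and 16.1 CPM in the controls. HAVCR1 and LCN2, the usual markers of kidney injury, were not analysed here.

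Most immediate early genes were lower, while FOSL1, FOSL2 and MYC were higher. Of the list, 3 of 16 tested members were higher and 11 lower. Immediate early genes included 1 that was 2-fold higher and 8 that were 2-fold lower against both controls (median log2 fold of -1.46 against control 1 and -0.99 against control 2). These genes encode transcription factors made within minutes of a stimulus, which include tissue handling. FOS stood at 11.1 CPM in the 24 h biopsy, against 247 and 146 CPM in controls 1 and 2 (21.3-fold and 12.6-fold lower). FOSB was at 4.43 CPM at 24 h against 114 and 51.9 CPM in the controls. EGR1 was at 18.2 CPM at 24 h against 239 and 185 CPM in the controls. Control 1 was above control 2 for all 3 genes, by more than for most genes. NR4A1, an orphan nuclear receptor gene, was at 7.23 CPM at 24 h against 75.5 and 63.8 CPM in the controls. ATF3 was at 24.3 CPM at 24 h against 89.5 and 73.2 CPM in the controls. FOSL1 rose to 4.29 CPM at 24 h against 0.117 and 0.0384 CPM in the controls (7.76-fold and 8.90-fold). It was rare in both controls and could have met the count filter through graft biopsies alone. MYC, a growth transcription factor gene, rose to 29.8 CPM at 24 h against 16.7 and 13.7 CPM in the controls, and FOSL2 to 15.2 CPM at 24 h against 8.32 and 6.37 CPM in the controls. KLF6 and IER3 did not pass, at 96.7 CPM at 24 h against 103 and 77.9 CPM in the controls for KLF6. IER3 was at 137 CPM at 24 h against 126 and 113 CPM in the controls. Collection time and handling of the controls are not given in the labels.

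The stress programmes moved in parts. Of unfolded protein response genes, 8 of 17 tested members were higher and 1 lower. Unfolded protein genes included 3 that were 2-fold higher and 0 that were 2-fold lower against both controls (median log2 fold of 0.33 against control 1 and 0.40 against control 2). ATF4, the transcription factor gene of the integrated stress response, was at 201 CPM at 24 h against 92.4 and 89.1 CPM in the controls. The pseudokinase gene TRIB3 was at 6.47 CPM at 24 h against 1.09 and 0.787 CPM in the controls. HSPA5, the main chaperone gene of this response, did not pass, at 860.5 CPM at 24 h against 690.4 and 649.8 CPM in the controls. Of ATF4 target genes, 8 of 17 tested members were higher and 5 lower. ATF4 target genes included 3 that were 2-fold higher and 2 that were 2-fold lower against both controls (median log2 fold of 0.11 against control 1 and 0.35 against control 2). DDIT4, an inhibitor of the growth kinase mTOR, rose to 127 CPM at 24 h against 27.1 and 27.8 CPM in the controls (4.64-fold and 4.51-fold). CEBPB, a transcription factor gene, rose to 30.3 CPM at 24 h against 8.64 and 7.16 CPM in the controls. SLC3A2, the heavy chain gene of amino acid exchangers, fell to 123 CPM at 24 h against 556 and 677 CPM in the controls (4.51-fold and 5.49-fold lower). SESN2, a stress-induced sestrin gene, also fell, to 22.9 CPM at 24 h against 55.98 and 63.6 CPM in the controls.

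Antioxidant genes controlled by NRF2 went both ways, with more of them higher. Of the list, 7 of 13 tested members were higher and 3 lower. NRF2 target genes included 4 that were 2-fold higher and 0 that were 2-fold lower against both controls (median log2 fold of 0.73 against control 1 and 0.77 against control 2). ME1, encoding the NADPH-making malic enzyme, was at 66.4 CPM in the 24 h biopsy, against 15.1 and 13.7 CPM in controls 1 and 2 (4.28-fold and 4.72-fold). NQO1 was at 52.9 CPM at 24 h against 13.96 and 14.9 CPM in the controls. SRXN1, encoding sulfiredoxin, was at 66.4 CPM at 24 h against 19.3 and 18.3 CPM in the controls. HMOX1, encoding heme oxygenase, fell to 70.7 CPM at 24 h against 92.7 and 105 CPM in the controls. GCLC, the catalytic subunit gene of glutathione synthesis, fell to 52.3 CPM at 24 h against 73.2 and 75.5 CPM in the controls. The ferritin light chain gene FTL fell to 7509 CPM at 24 h against 11291 and 14912 CPM in the controls. Each of these 3 was called lower by both tools.

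Hypoxia genes did not move one way. Of the list, 7 of 16 tested members were higher and 5 lower. Hypoxia genes included 4 that were 2-fold higher and 2 that were 2-fold lower against both controls (median log2 fold of 0.01 against control 1 and 0.09 against control 2). The glycolysis genes HK2 and PFKFB3 rose to 3.55 CPM at 24 h against 0.820 and 0.537 CPM in the controls for HK2. PFKFB3 was at 71.6 CPM at 24 h against 17.4 and 15.3 CPM in the controls. ALDOA rose to 608 CPM at 24 h against 274 and 288 CPM in the controls. VEGFA, the vascular growth factor gene, fell to 62.4 CPM at 24 h against 118 and 112 CPM in the controls. NDRG1 fell to 484 CPM at 24 h against 1000.0 and 1072 CPM in the controls. The mitophagy gene BNIP3 fell to 98.1 CPM at 24 h against 226 and 288 CPM in the controls. PGK1 and EGLN3, both induced by hypoxia-inducible factor, did not pass, at 491 CPM at 24 h against 538 and 533 CPM in the controls for PGK1. EGLN3 was at 92.3 CPM at 24 h against 98.6 and 106 CPM in the controls.

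Of heat shock genes, 4 of 10 tested members were higher and 2 lower. Heat shock genes included 1 that was 2-fold higher and 0 that were 2-fold lower against both controls (median log2 fold of 0.41 against control 1 and 0.36 against control 2). HSPA8, the constitutive cytosolic chaperone gene, rose to 1638 CPM at 24 h against 735 and 635 CPM in the controls. The mitochondrial chaperone genes HSPD1 and HSPE1 fell to 662 CPM at 24 h against 1279 and 1319 CPM in the controls for HSPD1. HSPE1 was at 289 CPM at 24 h against 495 and 541 CPM in the controls. Of p53 targets, 1 of 9 tested members was higher and 1 lower, against 23.9% and 23.0% of all genes tested. CDKN1A, encoding the cell cycle inhibitor p21, rose to 35.8 CPM at 24 h against 10.5 and 10.6 CPM in the controls (3.31-fold and 3.27-fold). TP53INP1 fell to 48.8 CPM at 24 h against 476 and 497 CPM in the controls (9.67-fold and 10.1-fold lower). CCNG1, a cyclin gene, did not pass, at 293 CPM at 24 h against 277 and 323 CPM in the controls. Of metallothionein and zinc response genes, 1 of 6 tested members was higher and 1 lower, beside the same shares over all genes. The zinc exporter gene SLC30A1 rose to 56.6 CPM at 24 h against 33.2 and 34.4 CPM in the controls. SLC30A2 fell to 14.1 CPM at 24 h against 28.4 and 35.3 CPM in the controls. MT3, a metallothionein gene, did not pass, at 31.3 CPM at 24 h against 27.1 and 32.99 CPM in the controls.

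Glucocorticoid-induced genes and clock genes were each split. Of glucocorticoid response genes, 7 of 15 tested members were higher and 4 lower. Steroid response genes included 2 that were 2-fold higher and 3 that were 2-fold lower against both controls (median log2 fold of 0.10 against control 1 and 0.04 against control 2). FKBP5, an immunophilin gene that steroids induce in most tissues, was at 365 CPM in the 24 h biopsy, against 113 and 100.2 CPM in controls 1 and 2 (3.23-fold and 3.63-fold). ZBTB16 was at 27.3 CPM at 24 h against 8.62 and 7.27 CPM in the controls (3.04-fold and 3.57-fold). SGK1, the kinase gene that activates sodium transport, was at 579 CPM at 24 h against 338 and 317 CPM in the controls. TSC22D3, encoding the glucocorticoid-induced leucine zipper, was at 78.2 CPM at 24 h against 57.6 and 50.4 CPM in the controls. PER1 did not pass, at 68.9 CPM at 24 h against 64.1 and 67.1 CPM in the controls. KLF9 and KLF15 fell to 152 CPM at 24 h against 336 and 340.3 CPM in the controls for KLF9. KLF15 was at 32.9 CPM at 24 h against 79.1 and 76.9 CPM in the controls. PDK4, which switches off pyruvate oxidation, fell to 109 CPM at 24 h against 436 and 432 CPM in the controls (4.005-fold and 3.97-fold lower). Steroids given to the recipient are not described in the labels.

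Of circadian clock genes, 2 of 15 tested members were higher and 5 lower, against 23.9% and 23.0% of all genes tested. Clock genes included 0 that were 2-fold higher and 1 that was 2-fold lower against both controls (median log2 fold of -0.25 against control 1 and -0.25 against control 2). NR1D1, encoding the repressor REV-ERB alpha, fell to 9.42 CPM in the 24 h biopsy, against 35.3 and 38.5 CPM in controls 1 and 2 (3.61-fold and 3.94-fold lower). The clock output gene DBP fell to 6.16 CPM at 24 h against 12.8 and 14.03 CPM in the controls. NPAS2, a partner of BMAL1, fell to 23.8 CPM at 24 h against 42.7 and 44.5 CPM in the controls. CIART, a clock repressor gene, rose to 4.76 CPM at 24 h against 2.51 and 2.25 CPM in the controls. BHLHE40, a clock repressor gene, did not pass, at 126 CPM at 24 h against 142 and 137 CPM in the controls, nor did PER1. ARNTL, CRY1 and HLF passed by edgeR but not by DESeq2. The time of day of each collection is not given in the labels, and its part in these values was not tested.

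Energy metabolism genes were lower in places. Of fatty acid oxidation and peroxisome genes, 2 of 19 tested members were higher and 8 lower. Oxidation genes included 1 that was 2-fold higher and 5 that were 2-fold lower against both controls (median log2 fold of -0.28 against control 1 and -0.35 against control 2). EHHADH and HADH, encoding peroxisomal and mitochondrial enzymes of beta-oxidation, fell to 485 CPM at 24 h against 1706 and 1476 CPM in the controls for EHHADH. HADH was at 277 CPM at 24 h against 837 and 937 CPM in the controls. The acyl-CoA dehydrogenase genes ACADM and ACADL fell to 744 CPM at 24 h against 1891 and 2106 CPM in the controls for ACADM. ACADL was at 126 CPM at 24 h against 333 and 332 CPM in the controls. CPT1A, the gate of fatty acid entry into mitochondria, rose to 178 CPM at 24 h against 86.5 and 85.5 CPM in the controls (2.05-fold and 2.07-fold). HADHB, of the trifunctional protein, and HAO2, a peroxisomal hydroxy acid oxidase gene, did not pass, at 385 CPM at 24 h against 497 and 493 CPM in the controls for HADHB. HAO2 was at 970.1 CPM at 24 h against 847 and 934 CPM in the controls.

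Respiratory chain genes were described by the genome that encodes them. All 13 mitochondrially encoded genes were lower by edgeR, with median log2 fold of -0.86 against control 1 and -1.77 against control 2, but DESeq2 called 1 of them, ND6, and the controls themselves differed by a median log2 of 0.87, control 2 being higher. COX1 was at 37784 CPM in the 24 h biopsy, against 66927 and 132441 CPM in controls 1 and 2. ND6 was at 241 CPM at 24 h against 699.5 and 1113 CPM in the controls. Of nuclear-encoded respiratory genes, 1 of 21 tested members was higher and 2 lower, against 23.9% and 23.0% of all genes tested. Their median log2 fold was -0.004 against control 1 and -0.20 against control 2. SDHC and SDHB of succinate dehydrogenase fell to 767 CPM at 24 h against 1271 and 1524 CPM in the controls for SDHC. SDHB was at 275 CPM at 24 h against 397 and 446 CPM in the controls. ATP5MC1 of the ATP synthase rose to 428 CPM at 24 h against 197 and 262 CPM in the controls. ATP5F1A did not pass, at 1772 CPM at 24 h against 1923 and 2002 CPM in the controls.

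Most cholesterol synthesis genes were higher by edgeR. Of the list, 13 of 20 tested members were higher and 0 lower, against 23.9% of all genes tested. Cholesterol genes included 3 that were 2-fold higher and 0 that were 2-fold lower against both controls (median log2 fold of 0.66 against control 1 and 0.51 against control 2). These genes are switched on together by SREBP2 when membrane sterol is low. SQLE, encoding squalene epoxidase, was at 74.03 CPM in the 24 h biopsy, against 21.2 and 20.9 CPM in controls 1 and 2 (3.44-fold and 3.48-fold). INSIG1, the sterol sensor gene, was at 81.6 CPM at 24 h against 39.2 and 42.4 CPM in the controls. STARD4, another target, did not pass, at 79.95 CPM at 24 h against 96.4 and 97.5 CPM in the controls. DESeq2 called 9 higher and 0 lower.

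Of ribosome biogenesis genes, 8 of 18 tested members were higher and 1 lower. Ribosome biogenesis genes included 0 that were 2-fold higher and 0 that were 2-fold lower against both controls (median log2 fold of 0.37 against control 1 and 0.38 against control 2). FBL, encoding fibrillarin, which modifies ribosomal RNA, was at 51.8 CPM at 24 h against 25.9 and 29.6 CPM in the controls. POLR1B, of RNA polymerase I, was at 38.8 CPM at 24 h against 21.7 and 20.7 CPM in the controls. Its partner POLR1A fell to 31.4 CPM at 24 h against 50.3 and 49.01 CPM in the controls. NCL, encoding nucleolin, did not pass, at 455 CPM at 24 h against 353 and 355 CPM in the controls. Of proteasome genes, 2 of 21 tested members were higher and 0 lower (1 higher and 0 lower by DESeq2), so their share was below that of all genes. Proteasome genes included 0 that were 2-fold higher and 0 that were 2-fold lower against both controls (median log2 fold of 0.26 against control 1 and 0.17 against control 2). PSMD14 was at 113 CPM at 24 h against 80.8 and 82.5 CPM in the controls. PSMD2 did not pass, at 297 CPM at 24 h against 269.7 and 263 CPM in the controls.

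**Figure D4:**
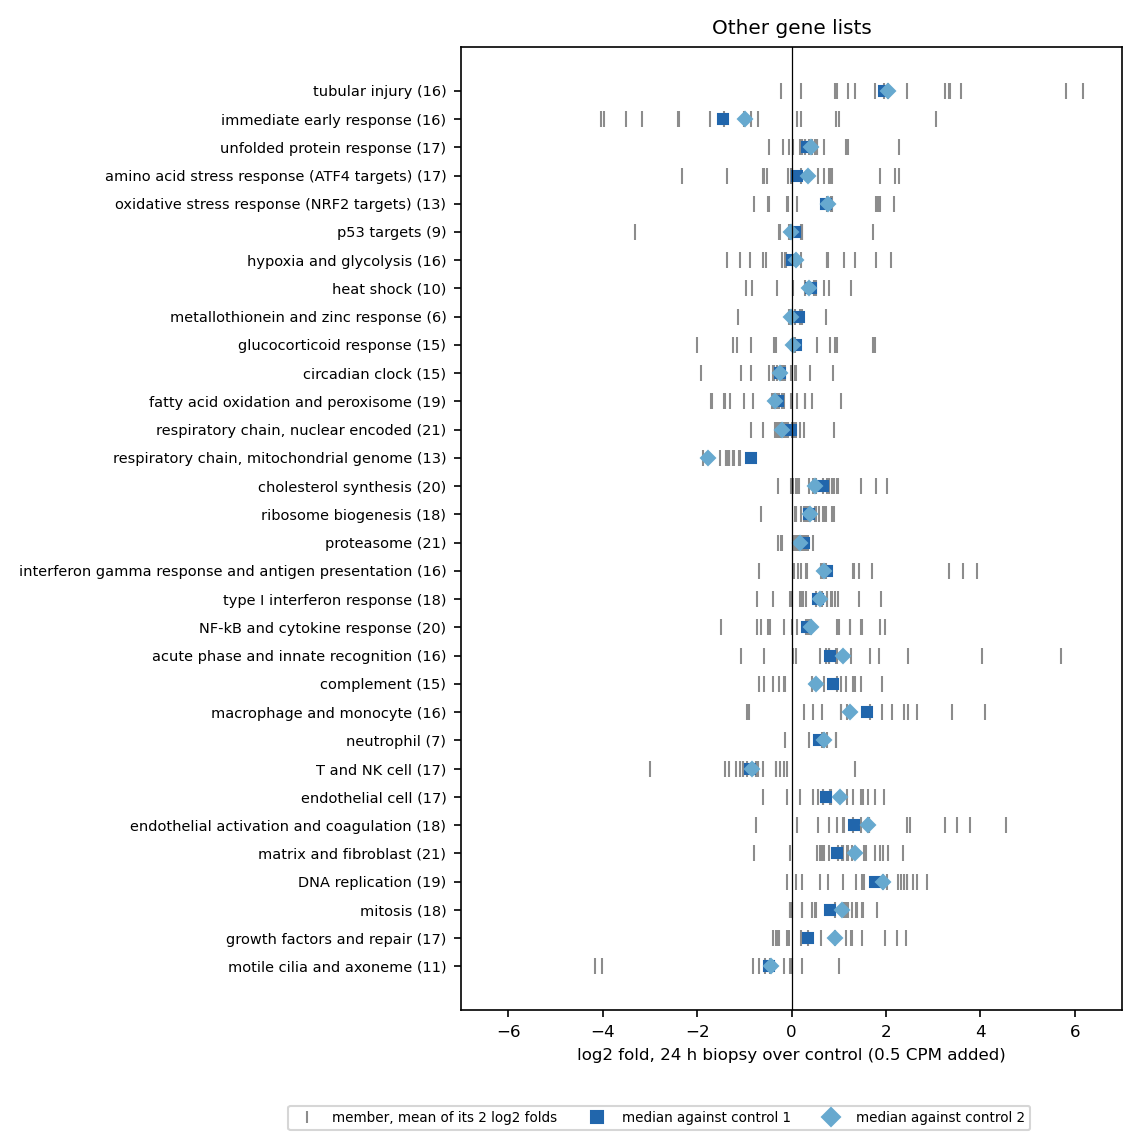
Log2 fold of the 24 h biopsy over the controls (0.5 CPM added) for the other lists, with the number of members tested in brackets. Grey ticks are members (mean of the 2 folds), squares and diamonds the list medians against control 1 and control 2. The thymus, B and plasma cell, red cell and platelet, adipose and skeletal muscle, and urothelium lists are not drawn. The tubular injury list has medians of 1.97 and 2.04 and the immediate early list -1.46 and -0.99; the mitochondrial list is the one where the 2 controls give the most different medians.

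Most genes induced by interferon gamma were higher in the graft. Of the list, 10 of 16 tested members were higher and 1 lower. Interferon gamma genes included 7 that were 2-fold higher and 0 that were 2-fold lower against both controls (median log2 fold of 0.75 against control 1 and 0.69 against control 2). The chemokine genes CXCL9 and CXCL10, whose proteins draw T cells, stood at 39.5 CPM in the 24 h biopsy, against 2.83 and 2.63 CPM in controls 1 and 2 for CXCL9 (12.02-fold and 12.8-fold). CXCL10 was at 63.1 CPM at 24 h against 6.36 and 5.22 CPM in the controls (9.27-fold and 11.1-fold). The immunoproteasome genes rose together, and PSMB10 was at 44.6 CPM at 24 h against 12.9 and 13.9 CPM in the controls. PSMB9 was at 14.6 CPM at 24 h against 5.16 and 5.07 CPM in the controls. PSMB8 was at 29.3 CPM at 24 h against 11.6 and 11.2 CPM in the controls. The peptide transporter gene TAP1 was at 43.7 CPM at 24 h against 17.7 and 17.04 CPM in the controls. WARS1, an interferon target gene, did not pass, at 55.4 CPM at 24 h against 41.7 and 45.98 CPM in the controls. SOCS1, a feedback inhibitor gene, was lower by edgeR, at 1.91 CPM at 24 h against 3.60 and 3.20 CPM in the controls, but not by DESeq2.

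Human-table counts of the same symbols moved with some of these genes. Per 100 pig-table counts of the gene, CXCL9 had 17.9 at 24 h against 1.78 and 3.65 in the controls, and CXCL10 22.8 at 24 h against 3.16 and 1.47 in the controls. CXCL11 had 15.3 at 24 h against 12.5 and 4.55 in the controls, where the controls had 2 and 1 human-table counts. By comparison SPP1 had 0.585 at 24 h against 0.709 and 0.492 in the controls, and MMP7 3.51 at 24 h against 3.79 and 4.78 in the controls. Over the 10222 genes with at least 100 pig counts in each of the 3 libraries the median was 22.6 at 24 h against 19.4 and 18.1 in the controls. The interferon gamma list had 20.3 at 24 h against 9.22 and 7.11 in the controls, and its median member 27.7 at 24 h against 6.53 and 4.77. The part of recipient reads in the pig-table values was not tested.

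Of type I interferon genes, 10 of 18 tested members were higher and 1 lower. Type I interferon genes included 2 that were 2-fold higher and 0 that were 2-fold lower against both controls (median log2 fold of 0.55 against control 1 and 0.60 against control 2). ISG15, a ubiquitin-like modifier gene, was at 17.02 CPM in the 24 h biopsy, against 4.02 and 4.43 CPM in controls 1 and 2 (3.88-fold and 3.55-fold). BST2, which tethers virus particles, was at 26.7 CPM at 24 h against 9.79 and 9.46 CPM in the controls. MX1 was at 21.1 CPM at 24 h against 11.05 and 9.86 CPM in the controls. OAS2 fell to 23.2 CPM at 24 h against 36.7 and 40.9 CPM in the controls. IFIT1 did not pass, at 22.1 CPM at 24 h against 20.7 and 18.2 CPM in the controls. Of NF-kB and cytokine genes, 9 of 20 tested members were higher and 4 lower by edgeR, and 7 higher and 2 lower by DESeq2. Cytokine genes included 5 that were 2-fold higher and 1 that was 2-fold lower against both controls (median log2 fold of 0.32 against control 1 and 0.42 against control 2). IL11 and IL6 were low but above both controls, at 1.91 CPM at 24 h against 0.134 and 0.0960 CPM in the controls for IL11. IL6 was at 1.13 CPM at 24 h against 0.201 and 0.173 CPM in the controls. IL11, rare in both controls, could have met the count filter through graft biopsies alone. CSF1, the macrophage growth factor gene, was at 35.8 CPM at 24 h against 10.8 and 8.19 CPM in the controls (3.21-fold and 4.17-fold). The adhesion molecule gene ICAM1 was at 49.4 CPM at 24 h against 19.6 and 15.4 CPM in the controls. CXCL2, a neutrophil chemokine gene, fell to 10.97 CPM at 24 h against 33.7 and 30.4 CPM in the controls. CCL2 did not pass, at 26.8 CPM at 24 h against 30.6 and 23.3 CPM in the controls.

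Of acute phase and innate recognition genes, 12 of 16 tested members were higher and 2 lower by edgeR, and 9 higher and 1 lower by DESeq2. Acute phase genes included 6 that were 2-fold higher and 1 that was 2-fold lower against both controls (median log2 fold of 0.80 against control 1 and 1.09 against control 2). Beside LBP and APOA4, CD14 was at 23.6 CPM in the 24 h biopsy, against 3.60 and 4.09 CPM in controls 1 and 2 (5.89-fold and 5.26-fold). The hemopexin gene HPX, which binds free heme, was at 29.03 CPM at 24 h against 8.25 and 9.37 CPM in the controls. APOA1 was at 119.9 CPM at 24 h against 30.6 and 34.8 CPM in the controls. TF, encoding transferrin, fell to 253 CPM at 24 h against 534 and 534 CPM in the controls. ALB, the defining gene of liver, was at 0.192 CPM at 24 h against 0.301 and 0.0768 CPM in the controls and did not pass. A2M and CP rose by edgeR but not by DESeq2, and control 1 was well above control 2 for both, at 501 CPM at 24 h against 413 and 202 CPM in the controls for A2M. CP was at 84.2 CPM at 24 h against 59.2 and 32.4 CPM in the controls. Of complement genes, 9 of 15 tested members were higher and 3 lower by edgeR, and 7 higher and 1 lower by DESeq2. Complement genes included 5 that were 2-fold higher and 0 that were 2-fold lower against both controls (median log2 fold of 0.88 against control 1 and 0.51 against control 2). C2, of the classical pathway, was at 17.995 CPM at 24 h against 4.59 and 4.18 CPM in the controls. The inhibitor gene SERPING1 was at 281 CPM at 24 h against 131 and 98.9 CPM in the controls. The anaphylatoxin receptor gene C5AR1 was at 7.85 CPM at 24 h against 3.50 and 3.05 CPM in the controls. C4A and C6 fell to 165 CPM at 24 h against 252 and 281 CPM in the controls for C4A. C6 was at 3.22 CPM at 24 h against 4.72 and 5.37 CPM in the controls and passed by edgeR alone.

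By edgeR most macrophage genes were higher and most T and NK cell genes lower. Of the macrophage and monocyte list, 13 of 16 tested members were higher and 2 lower. Macrophage genes included 8 that were 2-fold higher and 0 that were 2-fold lower against both controls (median log2 fold of 1.59 against control 1 and 1.24 against control 2). GPNMB, a lysosomal membrane protein gene that injured tubules also express in mice, was at 2345 CPM in the 24 h biopsy, against 231 and 211 CPM in controls 1 and 2 (10.1-fold and 11.1-fold). CD68, a lysosomal protein gene, was at 26.1 CPM at 24 h against 3.50 and 3.92 CPM in the controls (6.64-fold and 6.01-fold). The mannose receptor gene MRC1 was at 90.8 CPM at 24 h against 17.3 and 16.6 CPM in the controls. The complement receptor gene VSIG4 was at 40.98 CPM at 24 h against 8.14 and 9.83 CPM in the controls. The scavenger receptor gene MSR1 was at 19.4 CPM at 24 h against 4.27 and 5.39 CPM in the controls. AIF1 and CCR2, of resident macrophages and of monocytes, fell to 28.7 CPM at 24 h against 49.3 and 63.3 CPM in the controls for AIF1. CCR2 was at 2.76 CPM at 24 h against 5.47 and 5.66 CPM in the controls.

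Human-table counts per 100 pig-table counts were higher at 24 h for part of this list. CD163 had 54.5 at 24 h against 25.5 and 23.9 in the controls, CD14 43.5 at 24 h against 0.465 and 0.469 in the controls, VSIG4 76.5 at 24 h against 9.67 and 7.23 in the controls and MSR1 60.9 at 24 h against 9.02 and 3.91 in the controls. GPNMB had 4.67 at 24 h against 4.06 and 3.09 in the controls, MRC1 21.3 at 24 h against 19.01 and 13.9 in the controls and CD68 0.158 at 24 h against 0 and 0 in the controls. The list summed to 13.3 at 24 h against 6.86 and 6.22 in the controls, and its median member had 49 at 24 h against 6.33 and 3.09. PTPRC, the common leukocyte antigen gene, fell in the pig table, to 13.1 CPM at 24 h against 19.2 and 20.4 CPM in the controls. Its human-table counts per 100 pig-table counts were 127 at 24 h against 7.16 and 6.30 in the controls.

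Of T and NK cell genes, 1 of 17 tested members was higher and 11 lower. T and NK cell genes included 1 that was 2-fold higher and 5 that were 2-fold lower against both controls (median log2 fold of -0.88 against control 1 and -0.83 against control 2). GNLY, encoding granulysin of cytotoxic cells, was at 0.811 CPM in the 24 h biopsy, against 8.67 and 11.3 CPM in controls 1 and 2 (6.995-fold and 9.03-fold lower). CD8A was at 0.646 CPM at 24 h against 2.49 and 2.61 CPM in the controls. CD2 was at 2.38 CPM at 24 h against 5.83 and 4.87 CPM in the controls. NKG7, a cytotoxic granule gene, was higher, at 8.06 CPM at 24 h against 2.41 and 3.44 CPM in the controls. CD3D, CD3E and CD4 were lower by edgeR but not by DESeq2, all at low levels, for example CD3E at 0.880 CPM at 24 h against 2.04 and 2.61 CPM in the controls. DESeq2 called 1 higher and 5 lower. Human-table counts per 100 pig-table counts of the T and NK list were 66.2 at 24 h against 3.79 and 2.35 in the controls. Of neutrophil genes, 6 of 7 tested members were higher and 0 lower by edgeR but 1 higher and 0 lower by DESeq2. The count filter can be met by 1 library, so rare genes such as S100A8 could enter through a graft biopsy where they are high. MPO, ELANE and PADI4 had too few counts to be tested. The share of tested members that rose is therefore partly set by the filter. S100A8 had 22 pig-table counts at 24 h against 2 and 0 in the controls, and 2486 human-table counts against 2 and 1. The neutrophil list had 358 human-table counts per 100 pig-table counts at 24 h, against 2.38 and 2.73 in the controls.

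Most vessel genes were higher. Of the endothelial cell list, 14 of 17 tested members were higher and 1 lower, and by DESeq2 10 higher and 1 lower. Endothelial genes included 7 that were 2-fold higher and 0 that were 2-fold lower against both controls (median log2 fold of 0.74 against control 1 and 1.03 against control 2). PECAM1, the junctional adhesion gene, was at 397 CPM in the 24 h biopsy, against 116 and 89.7 CPM in controls 1 and 2 (3.43-fold and 4.41-fold). The sphingosine receptor gene S1PR1 was at 40.8 CPM at 24 h against 13.7 and 9.71 CPM in the controls. NOS3, encoding endothelial nitric oxide synthase, was at 17.1 CPM at 24 h against 5.37 and 6.45 CPM in the controls. CDH5, VE-cadherin, was at 88.4 CPM at 24 h against 35.8 and 26.8 CPM in the controls. KDR, the main VEGF receptor gene, did not pass, at 90.5 CPM at 24 h against 109.9 and 84.1 CPM in the controls. EGFL7 fell to 22.3 CPM at 24 h against 30.2 and 37.998 CPM in the controls. Of endothelial activation and coagulation genes, 16 of 18 tested members were higher and 1 lower. Activation genes included 12 that were 2-fold higher and 0 that were 2-fold lower against both controls (median log2 fold of 1.32 against control 1 and 1.62 against control 2), and DESeq2 made the same number of calls. SELP, encoding P-selectin, which captures leukocytes and platelets, was at 11.6 CPM at 24 h against 0.887 and 0.652 CPM in the controls (8.69-fold and 10.5-fold). PLAUR, the urokinase receptor gene, was at 11.5 CPM at 24 h against 1.67 and 1.54 CPM in the controls (5.52-fold and 5.90-fold). THBD, the anticoagulant thrombomodulin gene, was at 6.63 CPM at 24 h against 2.08 and 1.61 CPM in the controls. F3, encoding tissue factor, fell to 7.05 CPM at 24 h against 13.1 and 11.3 CPM in the controls. TFPI, its inhibitor, did not pass, at 1.02 CPM at 24 h against 1.05 and 0.748 CPM in the controls.

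Of matrix and fibroblast genes, 19 of 21 tested members were higher and 1 lower. Matrix genes included 10 that were 2-fold higher and 0 that were 2-fold lower against both controls (median log2 fold of 0.96 against control 1 and 1.35 against control 2). Control 1 was above control 2 for most of these genes, with a median log2 difference of -0.35 for control 2 over control 1, so the folds against control 1 are the smaller. The collagen genes COL1A2 and COL3A1 were at 1009 CPM in the 24 h biopsy, against 234 and 163 CPM in controls 1 and 2 for COL1A2 (4.30-fold and 6.17-fold). COL3A1 was at 1574 CPM at 24 h against 460.0 and 313 CPM in the controls (3.42-fold and 5.02-fold). The fibroblast receptor gene PDGFRA was at 128 CPM at 24 h against 47.3 and 25.1 CPM in the controls. Vimentin, VIM, was at 594 CPM at 24 h against 207 and 193 CPM in the controls. CCN2, a target of TGF-beta and YAP signalling, fell to 89.3 CPM at 24 h against 165 and 146 CPM in the controls. CCN1 did not pass, at 97.7 CPM at 24 h against 108 and 92.5 CPM in the controls. COL6A3, FN1, POSTN, LOX and PDGFRA passed by edgeR but not by DESeq2.

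Most cell cycle genes were higher. Of the replication list, 16 of 19 tested members were higher and 0 lower. Replication genes included 13 that were 2-fold higher and 0 that were 2-fold lower against both controls (median log2 fold of 1.77 against control 1 and 1.93 against control 2). E2F1, the transcription factor gene that starts S phase, was at 10.8 CPM in the 24 h biopsy, against 1.29 and 0.844 CPM in controls 1 and 2 (6.33-fold and 8.42-fold). UHRF1, which copies DNA methylation, was at 8.06 CPM at 24 h against 0.937 and 0.768 CPM in the controls. MCM3 and MCM4 of the replicative helicase were at 19.2 CPM at 24 h against 3.06 and 2.61 CPM in the controls for MCM3. MCM4 was at 29.6 CPM at 24 h against 5.17 and 4.95 CPM in the controls. PCNA and RRM1 did not pass, at 179.6 CPM at 24 h against 181 and 203 CPM in the controls for PCNA. RRM1 was at 58.7 CPM at 24 h against 56.2 and 54.1 CPM in the controls. Of mitosis genes, 12 of 18 tested members were higher and 0 lower. Mitosis genes included 7 that were 2-fold higher and 0 that were 2-fold lower against both controls (median log2 fold of 0.82 against control 1 and 1.07 against control 2). CDC20, the activator gene of the anaphase complex, was at 8.33 CPM at 24 h against 1.61 and 2.48 CPM in the controls. CDK1 was at 3.13 CPM at 24 h against 1.22 and 0.614 CPM in the controls. TOP2A was at 7.12 CPM at 24 h against 2.90 and 1.67 CPM in the controls. AURKB and BIRC5 did not pass, at 4.85 CPM at 24 h against 5.22 and 4.72 CPM in the controls for AURKB. BIRC5 was at 7.09 CPM at 24 h against 6.24 and 7.87 CPM in the controls. The difference between the 2 lists was not tested.

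Of growth factor and repair genes, 9 of 17 tested members were higher and 1 lower. Growth factor genes included 7 that were 2-fold higher and 0 that were 2-fold lower against both controls (median log2 fold of 0.35 against control 1 and 0.92 against control 2). WNT7A, a secreted signal gene, had 158 counts at 24 h and none in either control, which against a floor of 3 counts per control library is at least 43.3-fold higher than control 1 and at least 37.7-fold higher than control 2. It met the count filter through graft biopsies alone. EREG and HBEGF, ligands of the EGF receptor, were at 23.6 CPM at 24 h against 4.67 and 4.61 CPM in the controls for EREG. HBEGF was at 21.1 CPM at 24 h against 8.07 and 8.56 CPM in the controls. The transcription factor gene KLF5 was at 24.8 CPM at 24 h against 9.49 and 10.5 CPM in the controls. MET and EGFR, the receptor genes for hepatocyte growth factor and EGF, did not pass, at 122 CPM at 24 h against 98.05 and 94.3 CPM in the controls for MET. EGFR was at 65.2 CPM at 24 h against 71.4 and 63.3 CPM in the controls. Of motile cilia and axoneme genes, 1 of 11 tested members was higher and 5 lower by edgeR, and 1 higher and 2 lower by DESeq2. Cilia genes included 0 that were 2-fold higher and 2 that were 2-fold lower against both controls (median log2 fold of -0.49 against control 1 and -0.43 against control 2). FOXJ1, the master regulator gene of motile cilia, rose to 8.07 CPM at 24 h against 4.89 and 2.92 CPM in the controls, opposite to DNAH5 and CCDC60. CCDC39, needed for the inner arms, did not pass, at 2.10 CPM at 24 h against 3.15 and 3.01 CPM in the controls.

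Where the 24 h biopsy differed from the other graft biopsies was tested against the mean of the 12 and 48 h biopsies in the same fit, in which the controls supply the spread. By edgeR 411 genes were higher (3.20%) and 255 lower (1.98%), together 5.18%, and DESeq2 called 124 and 49. Cholesterol synthesis genes had 10 higher and 0 lower of 20, distal convoluted and connecting tubule genes 6 higher and 0 lower of 12, and convoluted proximal tubule genes 5 higher and 0 lower of 18. SQLE was at 74.03 CPM at 24 h, against 44.2 and 60.6 CPM at 12 and 48 h and INSIG1 at 81.6 CPM at 24 h, against 49.4 and 68.2 CPM at 12 and 48 h. SLC12A3 was at 74.1 CPM at 24 h, against 26.7 and 46.4 CPM at 12 and 48 h, LRP2 at 1055 CPM at 24 h, against 470.1 and 872 CPM at 12 and 48 h and CALB1 at 3267 CPM at 24 h, against 968 and 829.6 CPM at 12 and 48 h. The 24 h biopsy was the highest of the 3 for each of these 5 genes. For SQLE, INSIG1 and LRP2, however, the 48 h value was much nearer, and the 12 h biopsy was the low one. SLC12A3 was also lowest at 12 h, and CALB1 alone was far above both other biopsies.

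Collecting duct principal cell genes had 5 higher and 0 lower of 13, with FXYD4 at 74.2 CPM at 24 h, against 60.3 and 16.7 CPM at 12 and 48 h and AQP2 at 185 CPM at 24 h, against 158 and 85.7 CPM at 12 and 48 h. Against the 12 h biopsy alone neither passed (edgeR adjusted p = 0.322 for FXYD4 and 0.486 for AQP2), and the 48 h biopsy was the low one. Mitosis genes had 0 higher and 13 lower of 18. CDK1 was at 3.13 CPM at 24 h, against 1.58 and 32.7 CPM at 12 and 48 h, and TOP2A at 7.12 CPM at 24 h, against 2.20 and 71.3 CPM at 12 and 48 h, so for both genes the 48 h biopsy was above 24 h and the 12 h biopsy below it. NF-kB and cytokine genes had 0 higher and 5 lower of 20, and matrix genes 0 higher and 6 lower of 21. The matrix list summed to 6587 CPM at 24 h, against 4804 and 10536 CPM at 12 and 48 h, so there the 48 h biopsy was the high one. TIMP1 and KRT8, of the tubular injury list, differed from that. TIMP1 was at 76.6 CPM at 24 h, against 174 and 75.4 CPM at 12 and 48 h. KRT8 was at 421 CPM at 24 h, against 886 and 436 CPM at 12 and 48 h, so for both genes the 12 h biopsy was the high one. List medians by time are of fitted log2 fold changes over both controls, unlike the list medians above, which are ratios with 0.5 CPM added. The 2 measures differ most for low genes: mitosis at 24 h was 1.57 fitted, but 0.82 and 1.07 against controls 1 and 2. The fitted medians were 0.09 at 12 h, 0.71 at 24 h and 0.35 at 48 h for cholesterol synthesis. They were -0.65 at 12 h, -0.16 at 24 h and -0.61 at 48 h for the distal convoluted and connecting tubule. For the convoluted proximal tubule they were -2.03 at 12 h, -1.55 at 24 h and -1.90 at 48 h. Principal cells had 0.58 at 12 h, 0.54 at 24 h and 0.19 at 48 h. Matrix genes had 0.94 at 12 h, 1.08 at 24 h and 1.72 at 48 h. Tubular injury genes had 2.77 at 12 h, 2.04 at 24 h and 2.55 at 48 h. Each is a separate comparison with the same controls.

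**Figure D5:**
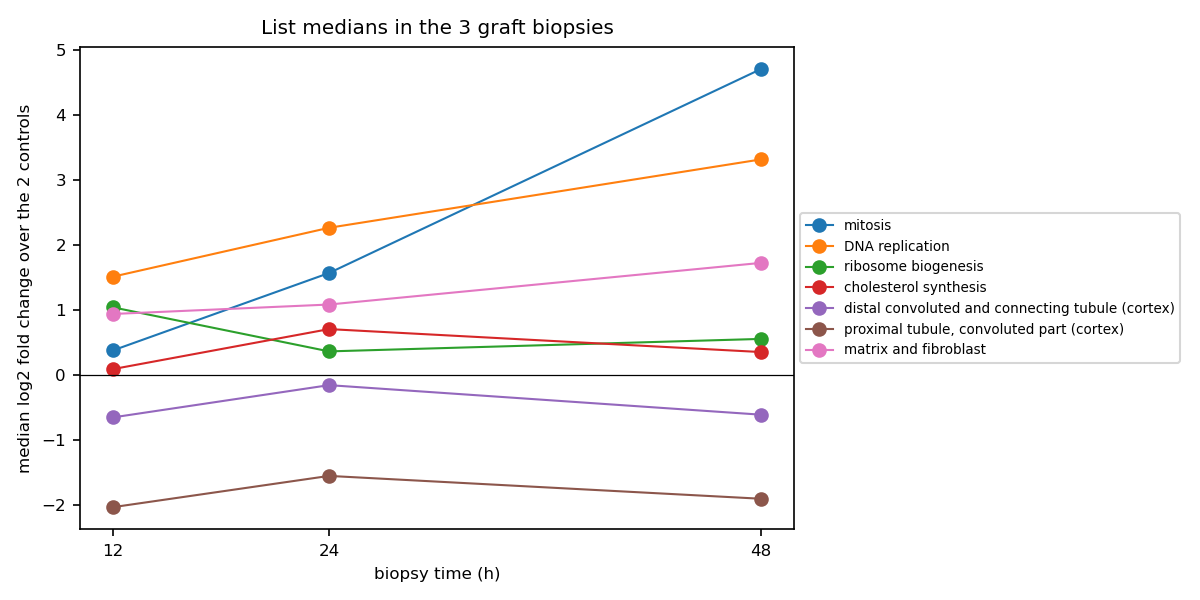
Median fitted log2 fold change over the 2 controls (vertical axis) for 7 lists in the single graft biopsies at 12, 24 and 48 h (horizontal axis); each point is 1 biopsy against the same controls. Cholesterol synthesis and both cortical tubule lists were highest at 24 h, at 0.71, -0.16 and -1.55, while the mitosis list was at 1.57 at 24 h and 4.70 at 48 h.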

How the data were processed

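The authors deposited raw counts per gene symbol in 2 tables, one over a pig genome (Sscrofa11, per the deposited table's name) and one over the human genome; the submitters' processing notes name hg38. The deposited counts are whole numbers, and library totals differ. Aligner, counter, strand setting and annotation release are not given in the sources used here, so overlapping and antisense genes and near-identical copies may share reads. Y-linked and XIST symbols were dropped before any step, which left 15233 pig symbols, of which 13822 were found in a RefSeq table of Sscrofa11.1. The pig table was analysed in R 4.3.3 with edgeR 4.0.16: TMM scaling, filterByExpr (minimum count 10, minimum total 15, 12857 genes kept), 1 group per time over all 5 libraries, robust quasi-likelihood fit and Benjamini-Hochberg adjustment at 0.05. SE is the absolute log2 fold change over the square root of F. For the median gene the prior degrees of freedom were infinite, so the spread came from the trend over all genes. Fits were tested on simulated data. DESeq2 1.42.0, RLE scaling, no filter, removal of the mitochondrial genes and a fit of 3 libraries were alternatives.

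The 47 lists held 780 symbols, of which 665 were in the table and 636 tested; members tested are those that passed the count filter. As each graft time is 1 library, the filter keeps a gene with enough counts in 1 library. Rare members could thus be tested because they are high in a graft biopsy. Lists and the choice of libraries were made with earlier results of these data known. Named genes were the 15 per direction with the largest lesser fold against the 2 controls among those that passed, with at least 2-fold against both and at least 1 CPM in every library of the higher side, the 8 per direction furthest from the 12 and 48 h biopsies, and in each list up to 4 that passed in the main direction, 2 in the other and 2 that did not pass; members of segment lists were free to name. Some genes that the rule names are not reported here. These genes fall outside that rule and were chosen after their values were seen: A2M, ANXA2, ARNTL, ATF3, C5AR1, CD2, CD3D, CD3E, CDH5, CDK1, COL6A3, COX1, CP, FN1, HBEGF, HMOX1, HPX, HSPA5, ICAM1, INSIG1, KLF5, KLF9, KRT18, KRT7, KRT8, LOX, MCM3, MCM4, MRC1, MSR1, MYC, NOS3, NR4A1, PDGFRA, PLAUR, POSTN, PSMB10, PSMB8, PSMB9, PTPRC, SGK1, SOX9, TAP1, THBD, TOP2A, TSC22D3, VEGFA, VIM and VSIG4. Labels name replicates for the controls alone. Depth, 56129925 to 71108823 pig counts per library, makes counting error small for all but rare genes; the floor of 3 counts covers counting error only, since no molecular identifiers are described and duplicates may be counted.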

Additional observations from a re-analysis of the deposited data

Results flagged for a closer look

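Genes whose 24 h value stood furthest from the mean of the 12 and 48 h biopsies passed the edgeR quasi-likelihood test of that difference after Benjamini-Hochberg adjustment; each time has 1 biopsy, and the spread comes from the control pair. Among those above the other times, the microRNA gene ssc-mir-10390 was at 3.20 CPM at 24 h, against 0.0829 and 0.0893 CPM at 12 and 48 h (controls 3.90 and 7.83 CPM, log2 5.19 ± 0.38, SE). CCL26, a chemokine gene, was at 18.1 CPM at 24 h, against 2.42 and 2.80 CPM at 12 and 48 h (controls 1.09 and 0.672 CPM, log2 2.80 ± 0.23), and KLK4, a kallikrein protease gene, at 1.11 CPM at 24 h, against 0.138 and 0.461 CPM at 12 and 48 h (controls 0.904 and 1.02 CPM, log2 2.13 ± 0.41). CYP26B1, which breaks down retinoic acid, was at 14.3 CPM at 24 h, against 3.45 and 4.20 CPM at 12 and 48 h (controls 3.05 and 3.65 CPM, log2 1.91 ± 0.22). CALB1 differed by log2 1.87 ± 0.22, and the carbonic anhydrase gene CA7 was at 5.66 CPM at 24 h, against 2.92 and 0.923 CPM at 12 and 48 h (controls 0.569 and 0.461 CPM, log2 1.79 ± 0.27). APOBEC1, a cytidine deaminase gene, was at 1.15 CPM at 24 h, against 0.166 and 0.744 CPM at 12 and 48 h (controls 0 and 0.0192 CPM, log2 1.71 ± 0.41), and SLC5A8, a monocarboxylate transporter gene, at 8.59 CPM at 24 h, against 4.64 and 1.52 CPM at 12 and 48 h (controls 10.1 and 5.34 CPM, log2 1.69 ± 0.22).

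Among those below the other times, PTX3, a soluble pattern recognition gene, was at 2.82 CPM at 24 h, against 24.6 and 6.76 CPM at 12 and 48 h (controls 3.11 and 2.21 CPM, log2 -2.19 ± 0.24), and CDO1, encoding cysteine dioxygenase, at 0.605 CPM at 24 h, against 4.33 and 1.31 CPM at 12 and 48 h (controls 2.44 and 1.54 CPM, log2 -1.97 ± 0.34). The collagen gene COL27A1 was at 1.29 CPM at 24 h, against 3.86 and 4.96 CPM at 12 and 48 h (controls 4.39 and 3.28 CPM, log2 -1.76 ± 0.29), and SFRP4, a secreted WNT antagonist gene, at 2.87 CPM at 24 h, against 7.79 and 8.44 CPM at 12 and 48 h (controls 29.4 and 21.2 CPM, log2 -1.50 ± 0.21). The mitosis gene KIF23 was at 1.99 CPM at 24 h, against 2.18 and 16.1 CPM at 12 and 48 h (controls 0.720 and 0.365 CPM, log2 -1.57 ± 0.27), and the mitosis gene PLK1 at 1.02 CPM at 24 h, against 1.06 and 7.70 CPM at 12 and 48 h (controls 1.09 and 0.998 CPM, log2 -1.49 ± 0.32). SERPINA3-2, a serpin gene with close copies, was at 1.06 CPM at 24 h, against 3.16 and 2.86 CPM at 12 and 48 h (controls 0.720 and 0.806 CPM, log2 -1.50 ± 0.32), and SLC34A2, a phosphate transporter gene, at 0.454 CPM at 24 h, against 1.01 and 1.59 CPM at 12 and 48 h (controls 0.134 and 0.0384 CPM, log2 -1.48 ± 0.41). Against the 12 h biopsy alone KIF23, PLK1 and SLC34A2 did not pass (adjusted p = 0.849, 0.945 and 0.0803, edgeR), nor did KLK4, APOBEC1 and CDO1 against the 48 h biopsy alone (0.0609, 0.506 and 0.0542).

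In the human table, outside the main measurement, the 24 h biopsy had 29.0 counts per 100 pig-table counts, above the 22.8 and 18.8 of controls 1 and 2.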

How the results depend on the processing

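For 24 h against the controls, DESeq2 called 3877 genes, 1975 higher and 1902 lower, of which 3868 were edgeR calls. RLE scaling, no count filter, leaving out mitochondrial genes and fitting 3 libraries kept the counts within 1.5 times. Past 2-fold against each control, adding 2 CPM gave 595 higher genes, and a 4-fold threshold gave 269, 147 higher and 122 lower. Against 1 control alone the 2-fold counts ran between 1848 and 2139 genes, with 983 to 1149 higher and 865 to 990 lower; no test could be fitted there, as no residual degree of freedom is left. Against the 12 and 48 h biopsies DESeq2 called 173, 124 higher and 49 lower. In the same fit, contrasts with 1 of these biopsies alone gave 1069 to 1598 genes, 352 to 988 higher and 610 to 717 lower. The 1069 were against the 48 h biopsy. No library was left out of the fit, so these counts reflect a change of contrast. Of 661 genes named or listed, 85 lost their call under DESeq2, 5 with 3 libraries and 4 under RLE scaling. Genes without an adjusted p under a setting were left out of its count. In the DESeq2 list counts above such genes are taken as not called. Without mitochondrial genes and without the filter, 1 each lost it. Against control 2 or control 1 alone, 193 and 192 lay further from the fitted value than the control spread. Single-control values are ratios with 0.5 CPM added, so these counts mix the choice of control with a change of measure. AGT was at log2 5.04 in the fit, but 4.61 and 4.38 against control 2 and control 1. List medians changed sign for thymus without the filter (0.04), adipose and muscle with 3 libraries (-0.45), metallothionein against control 2 (-0.002), and p53 (0.08) and B cell (0.04) against control 1. The sign changes against 1 control carry the same change of measure. The causes were not tested. No paired analysis was possible because the 24 h biopsy carries no replicate number and the groups share fewer than 2 numbers.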

Other observations

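Of B and plasma cell genes, 1 of 6 tested members was higher and 1 lower, against 23.9% and 23.0% of all genes tested. CD79A was at 575 CPM at 24 h against 356 and 403 CPM in the controls, a gene that overlaps RPS19 and is uncertain for that reason, and JCHAIN did not pass, at 26.6 CPM at 24 h against 25.8 and 23.9 CPM in the controls. Of thymus genes, 0 of 4 tested members were higher and 2 lower, and by DESeq2 0 higher and 0 lower. Of red cell and platelet genes, 2 of 4 tested members were higher and 0 lower, where SLC4A1 is a gene that intercalated cells also express. HBB, the beta globin gene, was at 0.852 CPM at 24 h against 0.201 and 0.249 CPM in the controls. DESeq2 did not call HBB or UPK2.

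Of adipose and skeletal muscle genes, 2 of 7 tested members were higher and 3 lower. DES, encoding desmin, which smooth muscle and mesangial cells also make, rose to 69.9 CPM at 24 h against 19.6 and 18.7 CPM in the controls, and PLIN4, a lipid droplet gene, fell to 7.16 CPM at 24 h against 45.4 and 52.03 CPM in the controls. ADIPOQ, the defining adipocyte gene, was at 0.0825 CPM at 24 h against 0.0335 and 0.0192 CPM in the controls. Of urothelium genes, 3 of 7 tested members were higher and 0 lower, and by DESeq2 2 higher and 0 lower. UPK2, without counts in the controls, met the count filter through graft biopsies alone, so its place among those higher was set by the filter. UPK3A, a uroplakin gene, was at 2.72 CPM at 24 h against 0.703 and 0.384 CPM in the controls, while UPK2 had 15 counts at 24 h and none in either control, at least 4.11-fold and 3.58-fold higher against a floor of 3 counts per control library. KRT5 and KRT20, of basal and surface urothelium, had 0 counts in all 3 libraries and were not tested.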
